A study of Danio rerio with 186 samples.

Results

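Genes of the cell cycle were followed through single sorted cells of the zebrafish pancreas. The list holds 32 genes chosen by name: 11 of DNA replication, 18 of mitosis and 3 of microtubules and chromatin that are abundant in dividing cells. All 32 were found, in 34 of the 31953 gene rows of the count table, since rrm2 and ube2c have 2 rows each. The fish were 30 days old after fertilization and all carried the same pair of transgenes, Tg(ins:BB1.0L), driven by the insulin promoter, and TgBAC(sst1.1:memEGFP), in which regulatory sequence of sst1.1 drives membrane EGFP. The gene ins encodes insulin, the hormone of beta cells, and sst1.1 a somatostatin, the hormone of delta cells. Cells were sorted by fluorescence into lysis buffer and sequenced by Smart-Seq2, a plate method that reads whole transcripts without molecular identifiers. The sort gave 60 sst1.1+ ins+ cells on plate 3, 66 sst1.1+ cells on plate 4, and ins+ cells on both plates, 27 on plate 4 and 33 on plate 3. Growth conditions were labelled as normal, no treatment is given, no animals are named, and most plate rows held cells of 1 gate, with 1 row of each plate holding both.

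Copying the genome needs the MCM helicase, which unwinds DNA at the fork, the sliding clamp PCNA, and enzymes that supply deoxynucleotides. Entry into mitosis is driven by the kinase Cdk1 with A- and B-type cyclins, and Polo-like and Aurora kinases then build the spindle and align the chromosomes before the anaphase-promoting complex ends division. Transcripts of both groups are scarce in resting cells and more abundant in cells that are in cycle. Endocrine cells of the islet divide mainly while the animal grows, and only a minority of them are in cycle at any time.

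Cells needed 500 genes with a read and 50000 gene reads, which kept 57 of 60 sst1.1+ ins+, 61 of 66 sst1.1+, 24 of 27 plate 4 ins+ and 32 of 33 plate 3 ins+ cells, 174 in all. The kept cells of 1 gate on 1 plate were summed into a pool, and the 4 pools held 12550652 to 34186971 gene reads. Levels are CPM, counts per 1e6 gene reads of a pool or of a cell. Each gate on each plate gave 1 sample, so differences could be neither checked in replicates nor tested. Bracketed 95% intervals hold the counting error alone, and reads amplified by PCR are not independent molecules. Hormone reads went against the gate in 12 sst1.1+ ins+, 2 sst1.1+, 1 plate 4 ins+ and 0 plate 3 ins+ cells, where ins and sst1.1 had each to reach 5% of the cell's reads if the gate named them and stay below it if not. The sst1.1+ ins+ and sst1.1+ cells share no plate, so no ratio between them was computed, and where their values stand side by side gate and plate cannot be told apart. A gene is called detected in a cell from 5 reads.

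The cell cycle genes were highest together in 2 pools. Summed over the 11 replication members, the level was 359 CPM in sst1.1+ ins+ cells, 237 CPM in sst1.1+ cells, 473 CPM in plate 4 ins+ cells and 205 CPM in plate 3 ins+ cells. Summed over the 18 mitotic members it was 399.6 CPM in sst1.1+ ins+ cells, 77.0 CPM in sst1.1+ cells, 174 CPM in plate 4 ins+ cells and 52.1 CPM in plate 3 ins+ cells. Replication sums thus differed 2.303-fold between the ins+ pools alone (2.20 to 2.41, plate 4 over plate 3), while the mitotic sum of sst1.1+ ins+ cells lay above all 3 other pools. The 3 microtubule and chromatin members summed to 575, 289, 684 and 258 CPM in the same order of pools.

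**Figure D1:**
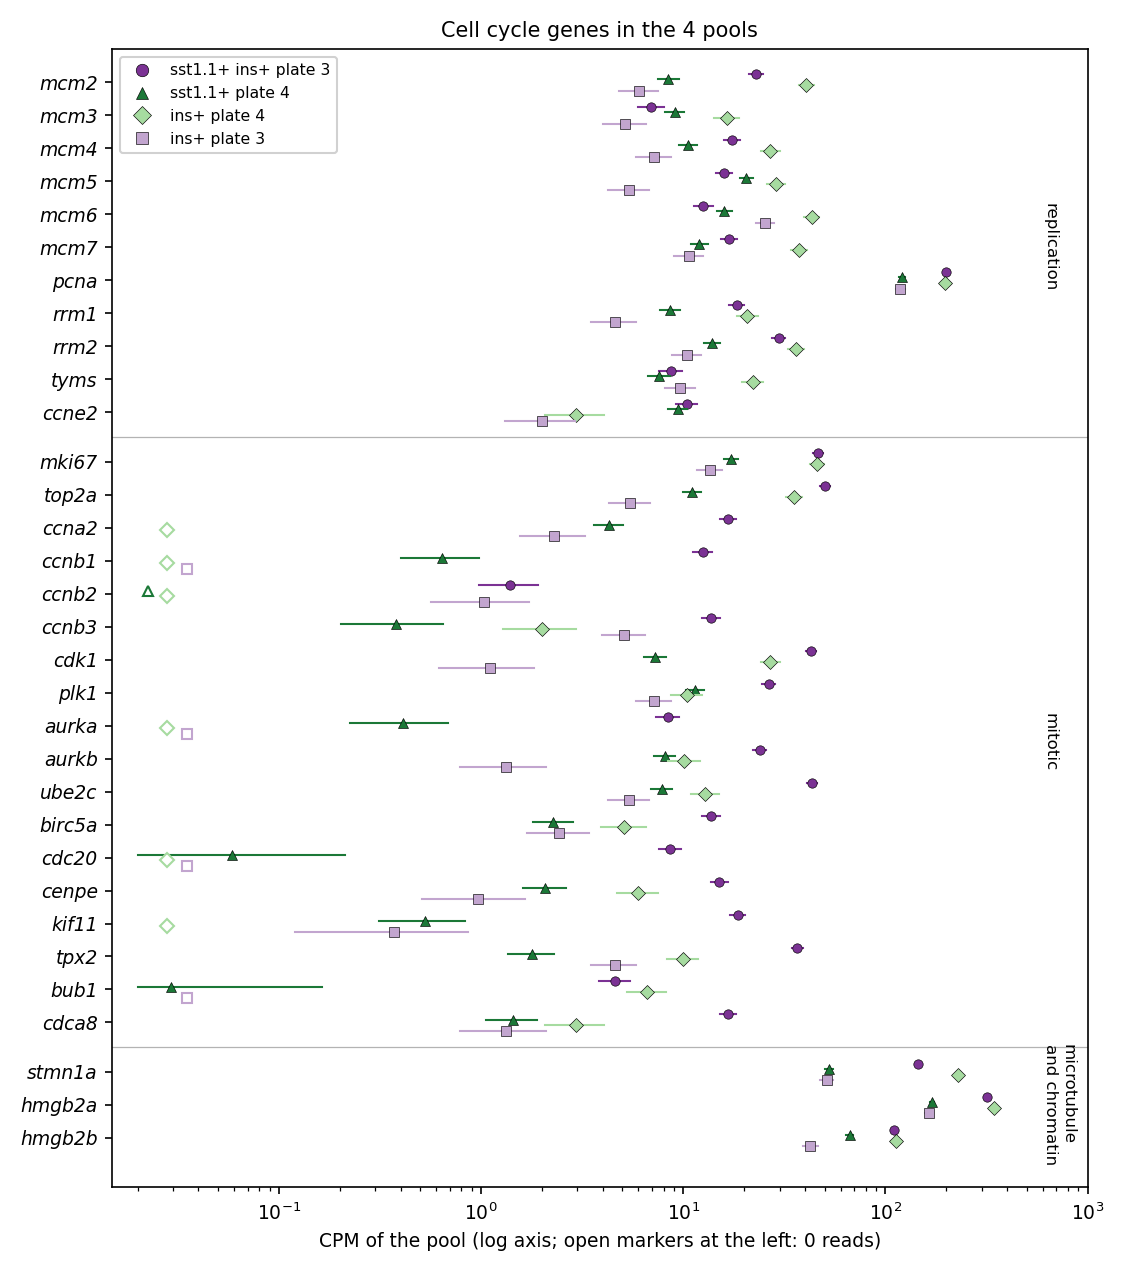
Level of each of the 32 cell cycle genes (CPM, log axis) in the 4 pools, with bars for the 95% counting interval and open markers for 0 reads. Most mitotic members lie farthest right in sst1.1+ ins+ cells, for example tpx2 at 36.6 CPM, while most replication members lie farthest right in plate 4 ins+ cells, for example mcm6 at 43.3 CPM.

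On plate 3, sst1.1+ ins+ cells held more cell cycle transcripts than ins+ cells. With all cells counted, the mitotic genes stood farther apart than the replication genes. The summed mitotic level was 7.67-fold higher (7.11 to 8.29) in sst1.1+ ins+ cells and the summed replication level 1.75-fold higher (1.68 to 1.83). The replication log2 ratio of 0.81 was 0.10 against the ins+ cells of both plates, 1.67 without the top cell of each pool (C7 and F5) and 4.52 without 3 cells of each. Without 3 cells of each pool, replication sums were 273 CPM in sst1.1+ ins+ and 11.9 CPM in plate 3 ins+ cells. Mitotic sums were then 224 and 18.8 CPM, so the replication genes stood farther apart. Top cells were ranked by reads of all members. C7 held only 45 of the 9831 replication reads of its pool, and E11, with 1848, stayed in for the 1.67. F5 held 1274 of the 2777 replication reads of plate 3 ins+ cells. For calls by gene, a member counted as different from a log2 ratio of 1 up or down after adding 1 CPM to both pools, and only genes with a mean of at least 5 CPM over the 4 pools were counted. That filter left 26 of the 32 members, and ccnb1, ccnb2, aurka, cdc20, kif11 and bub1 fell below it. A member can pass through a single pool where it is high, so the counts describe these pools and support nothing further. In sst1.1+ ins+ over plate 3 ins+ cells 20 members were at least 2-fold higher, where 15.6% of the 8594 genes passing the same filter were, and 0 were lower, where 10.6% of genes were. The 20 were 12 of 12 mitotic, 6 of 11 replication and 2 of 3 other members. Their median log2 ratio over the 26 was 1.73, beside -0.01 over all genes.

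On plate 4 the order was the other way, with less in sst1.1+ cells than in ins+ cells. The summed replication level of sst1.1+ cells was 0.501 times that of ins+ cells (0.485 to 0.518), and the summed mitotic level 0.442 times (0.417 to 0.468). Of the 26 members, 15 were at least 2-fold lower in sst1.1+ cells, against 15.7% of genes. Another 2 members were higher, against 22% of genes: the S-phase cyclin gene ccna2 and the G1 to S cyclin gene ccne2. The median log2 ratio of the members was -1.15, beside 0.06 over all genes. This direction rested on few cells, as given with the cells below.

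The ins+ gate was sorted on both plates, and its pools differed in most members. In plate 4 ins+ over plate 3 ins+ cells, 17 of 26 members were at least 2-fold higher, against 19% of genes, and ccna2 and the B-type cyclin gene ccnb3 were lower, against 16.1% of genes. The summed mitotic level was 3.34-fold higher on plate 4 (3.07 to 3.64), a log2 ratio of 1.74 that was 1.04 without the top cell of each pool (B8 and F5) and 0.14 without 3 cells of each. The median log2 ratio of the members was 1.44, beside 0.09 over all genes. All 3 comparisons share ins+ pools, so their values are not independent of each other.

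The MCM genes encode the 6 subunits of the replicative helicase. mcm2 stood at 22.9 CPM in sst1.1+ ins+ cells, 8.45 CPM in sst1.1+ cells, 40.7 CPM in plate 4 ins+ cells and 6.06 CPM in plate 3 ins+ cells. It was 3.77-fold higher in sst1.1+ ins+ than in plate 3 ins+ cells (2.99 to 4.81) and 6.72-fold higher in plate 4 than in plate 3 ins+ cells (5.31 to 8.59), and stood in sst1.1+ cells at 0.208 times the plate 4 ins+ level (0.179 to 0.240). The pools thus ranked with plate 4 ins+ cells first and plate 3 ins+ cells last, and only a few cells held the gene: 12 of 57 sst1.1+ ins+, 4 of 61 sst1.1+, 4 of 24 plate 4 ins+ and 3 of 32 plate 3 ins+ cells.

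mcm4 had 17.5 CPM in sst1.1+ ins+ cells, 10.6 CPM in sst1.1+ cells, 26.9 CPM in plate 4 ins+ cells and 7.17 CPM in plate 3 ins+ cells. mcm5 had 15.96 CPM in sst1.1+ ins+ cells, 20.5 CPM in sst1.1+ cells, 28.8 CPM in plate 4 ins+ cells and 5.40 CPM in plate 3 ins+ cells. Both kept the plate 4 ins+ pool at the top and the plate 3 ins+ pool at the bottom, and mcm5 was the subunit gene that stood closest between the gates of plate 4, at 0.710 times the ins+ level in sst1.1+ cells (0.624 to 0.808). mcm7 had 16.8 CPM in sst1.1+ ins+ cells, 12.02 CPM in sst1.1+ cells, 37.5 CPM in plate 4 ins+ cells and 10.6 CPM in plate 3 ins+ cells. mcm6 broke the order of the others on plate 3, where it was 0.494 times the ins+ level in sst1.1+ ins+ cells (0.424 to 0.575). Its levels were 12.6 CPM in sst1.1+ ins+ cells, 16 CPM in sst1.1+ cells, 43.3 CPM in plate 4 ins+ cells and 25.4 CPM in plate 3 ins+ cells, and mcm3 ranged from 5.17 to 16.4 CPM over the pools.

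Single cells set these levels. In plate 4 ins+ cells 1 cell, in well A2, held 42.9 to 93.2% of the reads of each MCM gene, and in sst1.1+ cells the cell in well F2 held 36.6 to 71.6%. In plate 3 ins+ cells each MCM gene had all its reads in 3 cells or fewer. In sst1.1+ ins+ cells the reads were spread further, with at most 31.1% of any of mcm3 to mcm7 in 1 cell and 42.97% of mcm2.

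pcna, the sliding clamp of the replication fork, carried more reads than any other replication member in each pool, though in plate 4 ins+ cells only 2473 of 5933. Its level was 199 CPM in sst1.1+ ins+ cells, 121 CPM in sst1.1+ cells, 197 CPM in plate 4 ins+ cells and 119 CPM in plate 3 ins+ cells. The sst1.1+ ins+ and plate 4 ins+ pools were thus level with each other, as were the sst1.1+ and plate 3 ins+ pools, and no ratio reached 2-fold: 1.68 for sst1.1+ ins+ over plate 3 ins+ cells (1.59 to 1.78) and 0.613 for sst1.1+ over plate 4 ins+ cells (0.583 to 0.645). It was detected in 23 of 57 sst1.1+ ins+, 12 of 61 sst1.1+, 5 of 24 plate 4 ins+ and 6 of 32 plate 3 ins+ cells. The highest cell of each pool held 2031, 2029.7, 1718 and 1859.7 CPM in that order, so the top cells were alike where the pool levels were not.

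The remaining replication members supply nucleotides or mark entry into S phase. rrm1, the large subunit of ribonucleotide reductase, had 18.4 CPM in sst1.1+ ins+ cells, 8.63 CPM in sst1.1+ cells, 20.8 CPM in plate 4 ins+ cells and 4.58 CPM in plate 3 ins+ cells. rrm2, the small subunit, had 29.6 CPM in sst1.1+ ins+ cells, 13.95 CPM in sst1.1+ cells, 36.2 CPM in plate 4 ins+ cells and 10.4 CPM in plate 3 ins+ cells. All reads of both subunits in plate 3 ins+ cells, 62 of rrm1 and 141 of rrm2, came from the cell in well F5, so the ratios of 4.01 and 2.84 for sst1.1+ ins+ over plate 3 ins+ cells compare 16 and 11 cells with 1. Of the rrm2 rows, ENSDARG00000078069 gave 27.2, 11.4, 25.7 and 10.1 CPM in the order sst1.1+ ins+, sst1.1+, plate 4 ins+ and plate 3 ins+, and ENSDARG00000020711 gave 2.41, 2.52, 10.4 and 0.296 CPM; how reads were split between such near copies is uncertain.

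tyms, thymidylate synthase, had 8.69 CPM in sst1.1+ ins+ cells, 7.58 CPM in sst1.1+ cells, 22.1 CPM in plate 4 ins+ cells and 9.68 CPM in plate 3 ins+ cells. It showed no difference beyond counting error between the gates of plate 3, with a ratio of 0.898 (0.722 to 1.12), and 98.5% of its plate 3 ins+ reads lay in well G11. ccne2, a cyclin E that starts S phase, was ordered by gate instead of by pool sum: 10.4 CPM in sst1.1+ ins+ cells, 9.39 CPM in sst1.1+ cells, 2.95 CPM in plate 4 ins+ cells and 1.996 CPM in plate 3 ins+ cells. It was 5.22-fold higher in sst1.1+ ins+ than in plate 3 ins+ cells (3.51 to 8.05) and 3.19-fold higher in sst1.1+ than in plate 4 ins+ cells (2.26 to 4.61). In all, 25 of the 174 cells had ccne2 detected. The other cyclin E gene, ccne1, which is not a member, did not follow this order. Its levels were 6.43 CPM in sst1.1+ ins+, 8.48 CPM in sst1.1+, 14.2 CPM in plate 4 ins+ and 0 CPM in plate 3 ins+ cells.

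Among the mitotic members, mki67, the proliferation antigen that coats mitotic chromosomes, had 46.3 CPM in sst1.1+ ins+ cells, 17.3 CPM in sst1.1+ cells, 45.9 CPM in plate 4 ins+ cells and 13.5 CPM in plate 3 ins+ cells. It was 3.42-fold higher in sst1.1+ ins+ than in plate 3 ins+ cells (2.93 to 4.02) and was 0.376 times as high in sst1.1+ as in plate 4 ins+ cells (0.335 to 0.423). The equal levels of the top pools hid unequal numbers of cells: mki67 was detected in 16 of 57 sst1.1+ ins+ and 3 of 24 plate 4 ins+ cells, and without the top cell of each pool stood at 35.3 CPM in sst1.1+ ins+ and 19.04 CPM in plate 4 ins+ cells.

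top2a, the topoisomerase that untangles sister chromatids, had 50.3 CPM in sst1.1+ ins+ cells, 11.1 CPM in sst1.1+ cells, 35.4 CPM in plate 4 ins+ cells and 5.47 CPM in plate 3 ins+ cells. Detected in 13 sst1.1+ ins+ cells, it lay in 3 sst1.1+, 2 plate 4 ins+ and 1 plate 3 ins+ cell. The sst1.1+ ins+ level was 9.20 times that of plate 3 ins+ cells (7.28 to 11.8), and 93.9% of the plate 4 ins+ reads came from well B8, without which that pool stood at 2.25 CPM.

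cdk1, the kinase that drives mitotic entry, gave one of the widest ratios. It had 42.9 CPM in sst1.1+ ins+ cells, 7.25 CPM in sst1.1+ cells, 26.9 CPM in plate 4 ins+ cells and 1.11 CPM in plate 3 ins+ cells. That made it 38.7-fold higher in sst1.1+ ins+ than in plate 3 ins+ cells (23.4 to 69.4) and 24.3-fold higher in plate 4 than in plate 3 ins+ cells (14.5 to 43.9). The plate 3 ins+ value was 15 reads in 1 cell, against 11 sst1.1+ ins+ cells with the gene.

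Its cyclin partners were low and uneven. ccna2, which acts in S phase and G2, had 16.6 CPM in sst1.1+ ins+ cells, 4.27 CPM in sst1.1+ cells, 0 reads in plate 4 ins+ cells and 2.29 CPM in plate 3 ins+ cells. With 3 reads standing for the 0, it was 17.9-fold higher in sst1.1+ than in plate 4 ins+ cells, the reverse of most members on that plate. The lower limit of the exact interval, which holds counting error alone, was 14.3-fold. ccnb1, a B-type cyclin of mitosis, had 12.5 CPM in sst1.1+ ins+ cells, 0.644 CPM in sst1.1+ cells and 0 reads in both ins+ pools. That puts sst1.1+ ins+ cells 56.3-fold above plate 3 ins+ cells by the same floor of 3 reads, with a lower counting limit of 45.6-fold. The gene was detected in 12 of the 174 cells, and without well C7 its sst1.1+ ins+ level was 7.06 CPM. ccnb3 had 13.8 CPM in sst1.1+ ins+ cells, 0.380 CPM in sst1.1+ cells, 1.99 CPM in plate 4 ins+ cells and 5.10 CPM in plate 3 ins+ cells, and 75.3% of its sst1.1+ ins+ reads lay in well C7. ccnb2 did not exceed 1.39 CPM in any pool.

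plk1, the Polo-like kinase that matures centrosomes and promotes mitotic entry, had 26.4 CPM in sst1.1+ ins+ cells, 11.5 CPM in sst1.1+ cells, 10.4 CPM in plate 4 ins+ cells and 7.17 CPM in plate 3 ins+ cells. Between the gates of plate 4 its ratio was 1.099 (0.899 to 1.35), yet it was detected in 9 sst1.1+ cells and in 1 plate 4 ins+ cell, well B8, which held all 131 reads of that pool.

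Aurora B works with survivin and borealin in the complex that corrects attachments of chromosomes to the spindle. aurkb had 23.8 CPM in sst1.1+ ins+ cells, 8.13 CPM in sst1.1+ cells, 10.1 CPM in plate 4 ins+ cells and 1.33 CPM in plate 3 ins+ cells, and was 17.9-fold higher in sst1.1+ ins+ than in plate 3 ins+ cells (11.3 to 30.4). Its partners birc5a, encoding survivin, and cdca8, encoding borealin, stood at 13.7 and 16.7 CPM in sst1.1+ ins+ cells and at no more than 5.10 CPM in any other pool, so all members of the complex measured here were highest in sst1.1+ ins+ cells. aurka, the Aurora kinase of the spindle poles, had 8.36 CPM in sst1.1+ ins+ cells, 0.410 CPM in sst1.1+ cells and 0 reads in both ins+ pools. Without well C7, aurka stood at 2.46 CPM in sst1.1+ ins+ cells.

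The spindle genes followed. tpx2, which nucleates spindle microtubules, had 36.6 CPM in sst1.1+ ins+ cells, 1.78 CPM in sst1.1+ cells, 9.96 CPM in plate 4 ins+ cells and 4.58 CPM in plate 3 ins+ cells. It was detected in 13 sst1.1+ ins+ cells, 2 sst1.1+ cells, 2 plate 4 ins+ cells and 1 plate 3 ins+ cell. kif11, the motor that pushes spindle poles apart, stood at 18.6 CPM in sst1.1+ ins+ cells, 0.527 CPM in sst1.1+ cells, 0 reads in plate 4 ins+ cells and 0.370 CPM in plate 3 ins+ cells, with 63.5% of the sst1.1+ ins+ reads in well C7. cenpe, a kinetochore motor, was highest in sst1.1+ ins+ cells at 15.08 CPM and lowest in plate 3 ins+ cells at 0.961 CPM. bub1, a kinase of the spindle checkpoint, was the mitotic member whose highest level was in plate 4 ins+ cells: 4.60 CPM in sst1.1+ ins+ cells, 0.0293 CPM (1 read) in sst1.1+ cells, 6.61 CPM in plate 4 ins+ cells and 0 reads in plate 3 ins+ cells.

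Both members of the machinery that ends mitosis were highest in sst1.1+ ins+ cells. ube2c, the ubiquitin-conjugating enzyme of the anaphase-promoting complex, had 43.2 CPM in sst1.1+ ins+ cells, 7.84 CPM in sst1.1+ cells, 12.8 CPM in plate 4 ins+ cells and 5.40 CPM in plate 3 ins+ cells, and was 8.01-fold higher in sst1.1+ ins+ than in plate 3 ins+ cells (6.32 to 10.3). Of its rows, ENSDARG00000035770 held nearly all of this, with 42.3, 6.70, 11.5 and 5.40 CPM in that order, and ENSDARG00000101618 gave at most 1.35 CPM. cdc20, the activator of that complex, had 8.62 CPM in sst1.1+ ins+ cells, 2 reads in sst1.1+ cells and 0 reads in both ins+ pools. That is 38.9-fold above plate 3 ins+ cells by the floor of 3 reads, with a lower limit of 31.4-fold for counting error alone. The gene was detected in 5 of the 174 cells, and without well C7 its sst1.1+ ins+ level was 4.14 CPM.

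The chromatin proteins were detected in more cells than any replication or mitotic member. hmgb2a, a high-mobility group protein, had 319.5 CPM in sst1.1+ ins+ cells, 170.2 CPM in sst1.1+ cells, 343 CPM in plate 4 ins+ cells and 165 CPM in plate 3 ins+ cells, and was detected in 53 of 57 sst1.1+ ins+, 49 of 61 sst1.1+, 20 of 24 plate 4 ins+ and 24 of 32 plate 3 ins+ cells. The median cell held 133 CPM of hmgb2a in sst1.1+ ins+ cells, 73.5 CPM in sst1.1+ cells, 126 CPM in plate 4 ins+ cells and 104 CPM in plate 3 ins+ cells. hmgb2b, its close paralog, with which reads may be shared, had 111 CPM in sst1.1+ ins+ cells, 66.6 CPM in sst1.1+ cells, 113 CPM in plate 4 ins+ cells and 42.6 CPM in plate 3 ins+ cells, and was detected in 50, 38, 14 and 15 cells in that order. stmn1a, which destabilizes microtubules, had its median cell at 0 in every pool, as did each replication and mitotic member. It ranked the pools as the replication sum did. Its levels were 144, 52.5, 228 and 51.1 CPM in sst1.1+ ins+, sst1.1+, plate 4 ins+ and plate 3 ins+ cells. It was 2.82-fold higher in sst1.1+ ins+ than in plate 3 ins+ cells (2.60 to 3.07) and was 0.230 times as high in sst1.1+ as in plate 4 ins+ cells (0.217 to 0.244).

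The reads of the list lay in few cells. In every pool the median cell had 0 CPM of each of the 11 replication and 18 mitotic members. Cells in which at least 5 replication members were detected numbered 12 of 57 among sst1.1+ ins+ cells (21.1%, exact interval 11.4 to 33.9%), 6 of 61 among sst1.1+ cells (9.84%, 3.70 to 20.2%), 3 of 24 among plate 4 ins+ cells (12.5%, 2.66 to 32.4%) and 2 of 32 among plate 3 ins+ cells (6.25%, 0.766 to 20.8%). Cells with at least 5 mitotic members numbered 11 of 57 among sst1.1+ ins+ cells (19.3%, 10.05 to 31.9%), 3 of 61 among sst1.1+ cells (4.92%, 1.03 to 13.7%), 1 of 24 among plate 4 ins+ cells (4.17%, 0.105 to 21.1%) and 1 of 32 among plate 3 ins+ cells (3.12%, 0.0791 to 16.2%). With all reads the shares were highest in sst1.1+ ins+ cells for both lists, and the intervals of the pools overlap. After every cell was thinned to 100000 gene reads, the mitotic shares were 8 of 56 sst1.1+ ins+, 3 of 61 sst1.1+, 1 of 24 plate 4 ins+ and 1 of 32 plate 3 ins+ cells, and the replication shares 7, 3, 3 and 2 cells in that order, with 1 sst1.1+ ins+ cell too shallow to count. The thinned replication share was thus 12.5% in both sst1.1+ ins+ and plate 4 ins+ cells, and only the mitotic share stayed highest in sst1.1+ ins+ cells.

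**Figure D2:**
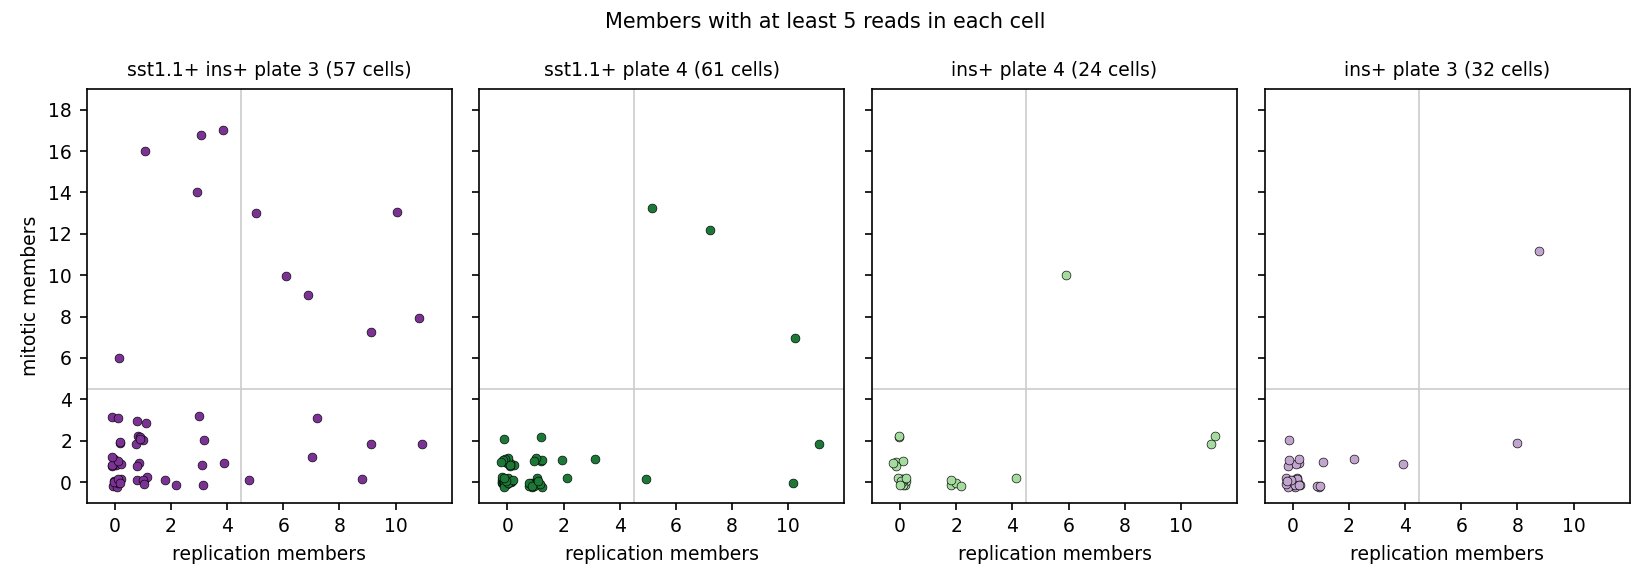
Number of replication members (x axis) and of mitotic members (y axis) with at least 5 reads in each kept cell, by pool; points are shifted slightly so that they do not cover each other, and grey lines mark 5 members. sst1.1+ ins+ cells lie in every corner, and only they, with 5 cells, fill the one with mitotic members alone. They have 11 cells above the horizontal line, while the other pools have 3, 1 and 1. Reads were not thinned for this figure.

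Both lists together were reached by 6 sst1.1+ ins+, 3 sst1.1+, 1 plate 4 ins+ and 1 plate 3 ins+ cell. Replication members without mitotic members marked 6, 3, 2 and 1 cells in that order. Mitotic members without replication members marked 5 sst1.1+ ins+ cells (8.77%, 2.91 to 19.3%) and 0 cells of the other pools, for which the intervals reach 5.87% in sst1.1+, 14.2% in plate 4 ins+ and 10.9% in plate 3 ins+ cells. After thinning, mitotic members alone marked 8, 2, 0 and 0 cells and both lists 0, 1, 1 and 1 cells in that order, so which cells carried both lists depended on depth. In all, 28 of 174 cells reached 5 members of either list, and in 57 cells no replication and no mitotic member reached the 5 reads of detection.

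The 28 cells ranged from replication to mitotic members. At one end, the sst1.1+ ins+ cells in wells D2 and B6 held 9 and 5 replication members and 0 mitotic ones. In the middle, the cells in wells E11 and C8 of that gate held 11 and 10 replication beside 8 and 13 mitotic members. At the other end, wells C9, C7 and E9 held 17, 17 and 16 of the 18 mitotic members with 4, 3 and 1 replication members. With all reads, the other pools ranged from the replication end to the middle. At the replication end, F2 among sst1.1+ cells had 10 replication and 0 mitotic members. A2 among plate 4 ins+ cells had 11 and 2, and G11 among plate 3 ins+ cells had 8 and 2. In the middle, D3 and H8 among sst1.1+ cells had 13 and 12 mitotic members with 5 and 7 replication members, B8 among plate 4 ins+ cells had 10 with 6, and F5 among plate 3 ins+ cells had 11 with 9. After thinning, D3 and H8 had 9 and 8 mitotic members with 4 and 2 replication members, and so reached 5 members of the mitotic list alone.

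**Figure D3:**
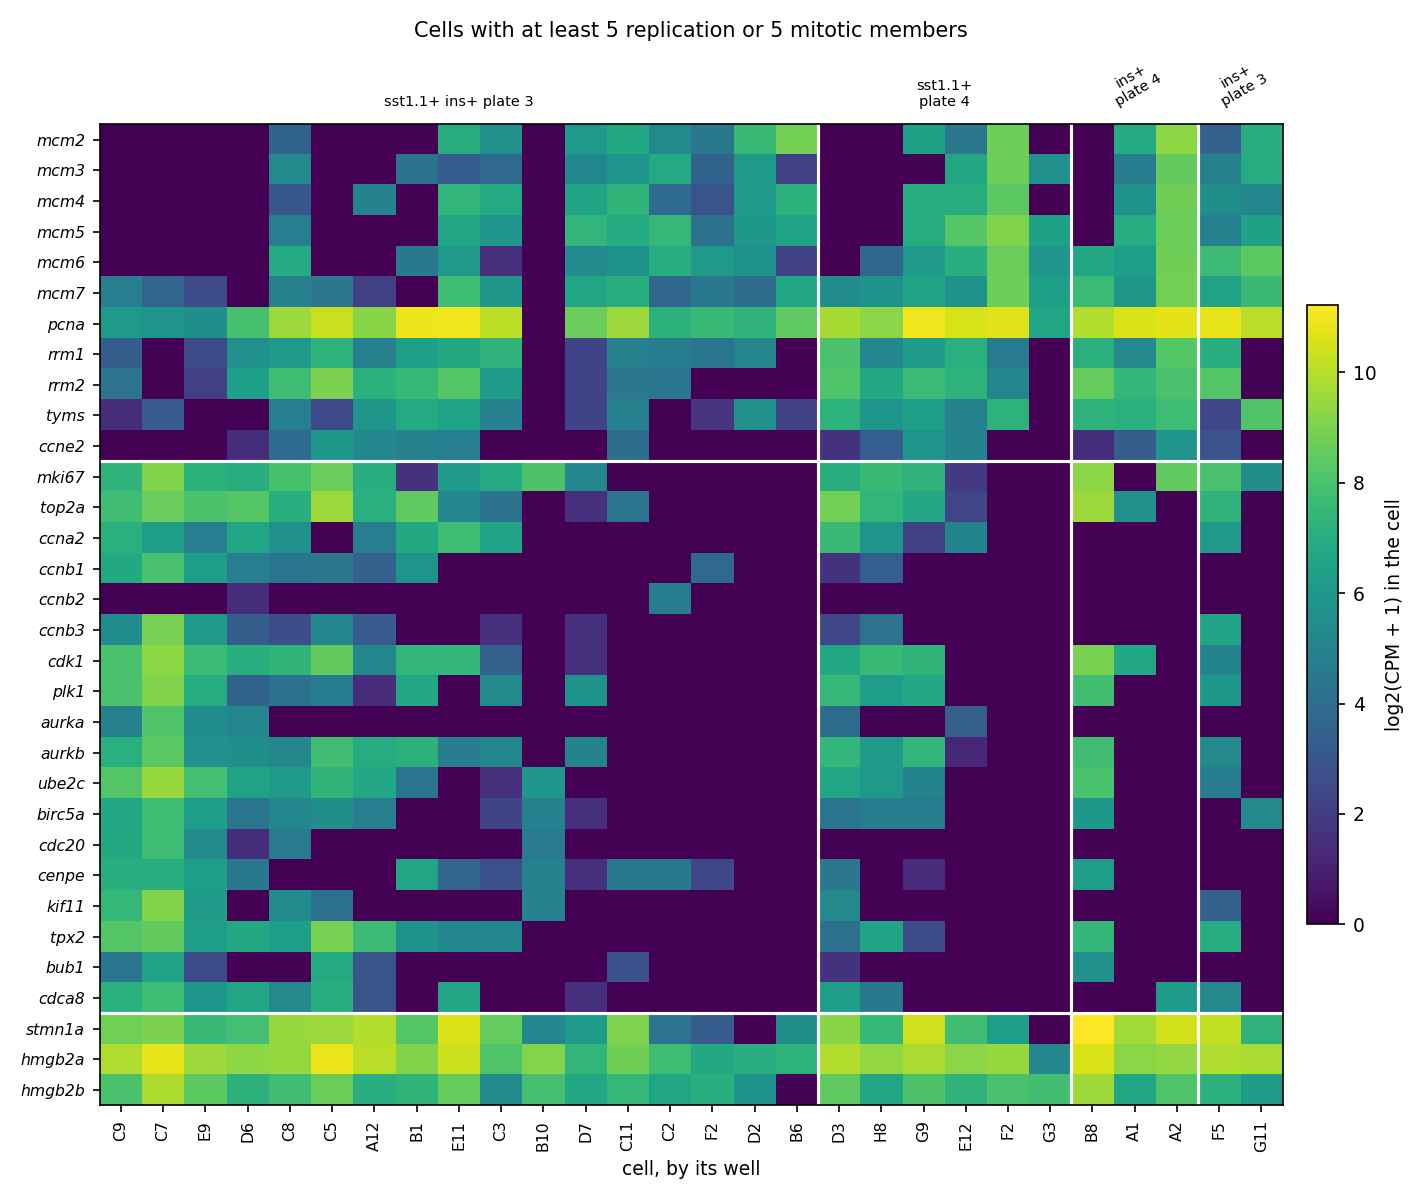
Level of the 32 members, as log2(CPM + 1), in the 28 cells with at least 5 replication or 5 mitotic members, by pool and well; white lines part the replication, mitotic and microtubule and chromatin members, and the pools. In the sst1.1+ ins+ cells with the most mitotic members, wells C9, C7 and E9 with 17, 17 and 16, mcm2 to mcm6 are at 0.

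Detection in these cells is given as a description, since the same members set the cells apart. Among the 16 cells with at least 5 mitotic members, top2a, cdk1, aurkb and mki67 were each detected in 15, while among the 146 cells below 5 of either list they were detected in 2, 1, 2 and 11. kif11 and cdc20 were detected in 8 and 5 of those 16 cells, in 0 of the 12 cells with replication members only and in 0 of the 146. Of the helicase genes, mcm5 was detected in 5 of the 16 and 12 of the 12 cells, and mcm3 in 5 and 11. pcna was detected in 15 of the 16 and in 12 of the 12, but also in 19 of the 146. ccnb2 stood apart from the other cyclins, in 0 of the 16 cells, 1 of the 12 and 4 of the 146.

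Levels per cell show the same concentration. The highest mitotic sums were 6024 CPM in a sst1.1+ ins+ cell, 1524 CPM in a sst1.1+ cell, 2879 CPM in a plate 4 ins+ cell and 899 CPM in a plate 3 ins+ cell, and the highest replication sums were 3219, 4479, 5305 and 2714 CPM in that order. The median cell had a mitotic sum of 43.9 CPM in sst1.1+ ins+ cells and of 0 in each of the other pools. Cells below 5 members of either list, pooled, had mitotic sums of 35.5 CPM in sst1.1+ ins+, 28.49 CPM in sst1.1+, 20.7 CPM in plate 4 ins+ and 19.4 CPM in plate 3 ins+ cells, and replication sums of 37.6, 27.8, 65.4 and 38.6 CPM in that order. As these cells were set apart by the same genes, the lower sums are a description.

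**Figure D4:**
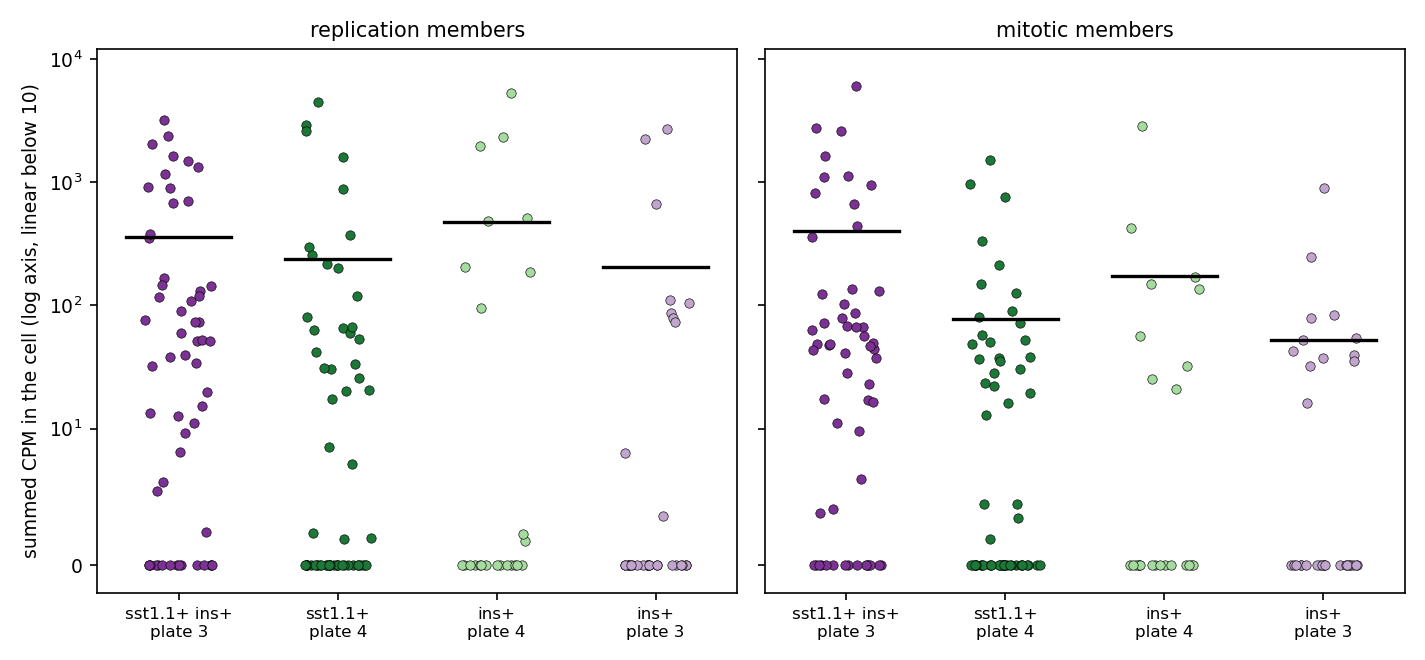
Summed level of the replication (left) and mitotic members (right) in each kept cell, in CPM on an axis that is linear below 10 and logarithmic above, with a black line at the level of the pool. The pool line of plate 3 ins+ cells, 205 CPM for replication members, lies above all but 3 of its cells, and the highest mitotic cell is the sst1.1+ ins+ cell at 6024 CPM.

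How far a pool level rested on its top cells differed between pools, which also differed in their numbers of cells. Cells with at least 5 members of either list numbered 17 of 57 sst1.1+ ins+, 6 of 61 sst1.1+, 3 of 24 plate 4 ins+ and 2 of 32 plate 3 ins+ cells. Leaving out 3 cells by member reads took all such cells from both ins+ pools, but not from the others. The 3 cells with most reads of a list held 39.3% of the replication reads of sst1.1+ ins+ cells, 71.4% of those of sst1.1+ cells, 88.0% of those of plate 4 ins+ cells and 94.8% of those of plate 3 ins+ cells, and for mitotic reads 56.9, 65.3, 90.1 and 81.6% in that order. Leaving out the cell with most member reads in each pool (C7, G9, B8 and F5) left mitotic sums of 275 CPM in sst1.1+ ins+, 64.8 CPM in sst1.1+, 44.5 CPM in plate 4 ins+ and 21.7 CPM in plate 3 ins+ cells. The cell in B8 alone held 75.6% of the mitotic reads of plate 4 ins+ cells, and the 44.5 CPM left without it lay below the 77.0 CPM of sst1.1+ cells with all their cells. Without both G9 and B8 the log2 ratio of sst1.1+ over plate 4 ins+ cells was 0.54, against -1.18 with all cells. G9 held 455 mitotic reads and D3, which stayed in, held 733, so of these pools only plate 4 ins+ lost its top mitotic cell. Without the 3 cells with most member reads in each pool, replication sums were 273 CPM in sst1.1+ ins+, 71.4 CPM in sst1.1+, 65.4 CPM in plate 4 ins+ and 11.9 CPM in plate 3 ins+ cells. The log2 ratio of replication members was then 0.13 for sst1.1+ over plate 4 ins+ cells and 4.52 for sst1.1+ ins+ over plate 3 ins+ cells. Set against the ins+ cells of both plates together, sst1.1+ ins+ cells had a log2 ratio of 1.85 for mitotic members, against 0.10 for replication members.

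**Figure D5:**
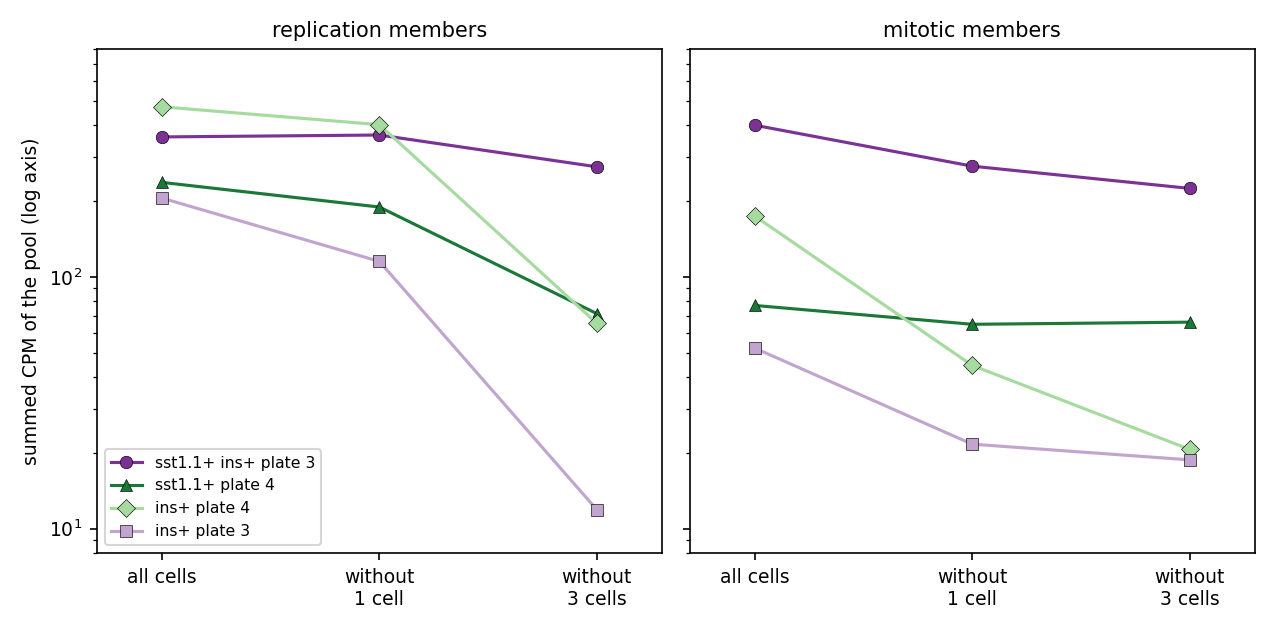
Summed level of the replication (left) and mitotic members (right) of each pool, in CPM on a log axis, with all cells, without the cell and without the 3 cells with most member reads. sst1.1+ ins+ cells keep 224 CPM of mitotic members without 3 cells, while plate 4 ins+ cells keep 20.7 CPM of 174 CPM. The 3 are all the plate 4 ins+ cells with at least 5 members of either list, but only 3 of 17 such sst1.1+ ins+ cells.

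Other genes of the cell cycle were counted by list, beside the shares of all genes that were called: 15.6% higher and 10.6% lower in sst1.1+ ins+ over plate 3 ins+, 22% and 15.7% in sst1.1+ over plate 4 ins+, and 19% and 16.1% in plate 4 over plate 3 ins+ cells. Of 55 listed genes of the spindle, kinetochore and cytokinesis, 52 were found and 29 passed the mean of 5 CPM. In sst1.1+ ins+ over plate 3 ins+ cells 23 of the 29 were at least 2-fold higher and 0 lower, in sst1.1+ over plate 4 ins+ cells 3 were higher and 16 lower, and in plate 4 over plate 3 ins+ cells 22 were higher and 1 lower. The most abundant were tubb4b, a beta-tubulin listed as tubb2b and matched by gene ID, at 217 CPM in sst1.1+ ins+, 161 CPM in sst1.1+, 153 CPM in plate 4 ins+ and 54.8 CPM in plate 3 ins+ cells, and kpna2, an importin, at 58.2, 6.79, 3.98 and 6.36 CPM in that order. tubb4b was detected widely, in 46 sst1.1+ ins+, 47 sst1.1+, 10 plate 4 ins+ and 12 plate 3 ins+ cells. smc4 of the condensin complex stood at 24.6, 5.06, 23.5 and 11.2 CPM and lmnb1, lamin B1, at 18.1, 19.3, 17.4 and 7.39 CPM in the same order.

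Genes of licensing and of the replication fork, 39 found of 40 with 25 passing, were 2-fold higher in 10 and lower in 1 case in sst1.1+ ins+ over plate 3 ins+ cells. In sst1.1+ over plate 4 ins+ cells 1 was higher and 11 lower, and in plate 4 over plate 3 ins+ cells 12 were higher and 0 lower. rpa1, which coats single-stranded DNA, led this list with 47.1 CPM in sst1.1+ ins+, 24.3 CPM in sst1.1+, 93.5 CPM in plate 4 ins+ and 14.6 CPM in plate 3 ins+ cells. chaf1a, a chromatin assembly factor, the flap endonuclease gene fen1 and the DNA ligase gene lig1 stood within 2-fold between the gates of each plate, at 36.6, 16.3 and 21.9 CPM in sst1.1+ ins+ cells and 18.5, 15.2 and 16.2 CPM in plate 3 ins+ cells.

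The regulators of G1 and the brakes of the cycle had median log2 ratios of 1.05, 0.04 and 0.76 for G1 genes and 0.18, -0.14 and 0.30 for inhibitors and exit genes in the 3 comparisons, beside 1.96, -1.10 and 1.43 for the spindle list and 0.71, -0.79 and 0.94 for the licensing list. Of 15 G1 cyclins, kinases and transcription factors, 14 were found and 8 passed, with 4 higher and 0 lower in sst1.1+ ins+ over plate 3 ins+, 1 higher and 0 lower in sst1.1+ over plate 4 ins+, and 3 higher and 1 lower in plate 4 over plate 3 ins+ cells. ccnd1, cyclin D1, had 47.1 CPM in sst1.1+ ins+, 66.2 CPM in sst1.1+, 35.4 CPM in plate 4 ins+ and 23.9 CPM in plate 3 ins+ cells. The Myc gene myca had 49.1, 49.5, 35.6 and 13.8 CPM in that order, its paralog mycb 43.1, 38.3, 25.1 and 47.01 CPM, and rbl1, of the retinoblastoma family, 16.9, 15.6, 5.90 and 20.4 CPM. Of 16 inhibitors of cyclin-dependent kinases and genes of cycle exit, 9 passed, with 2, 0 and 2 higher and 0, 2 and 0 lower in the 3 comparisons. The counts of these shorter lists lie near or below the shares of all genes, apart from the G1 genes higher in sst1.1+ ins+ and in plate 4 ins+ over plate 3 ins+ cells. btg1, an antiproliferative gene, was near even at 535 CPM in sst1.1+ ins+, 493 CPM in sst1.1+, 545 CPM in plate 4 ins+ and 471 CPM in plate 3 ins+ cells, as was ccng1, cyclin G1, at 443, 512, 435 and 479 CPM. btg2 and ccng2, of the same families, stood at 128 and 40.7 CPM in sst1.1+ ins+ cells and at 65.6 and 29.1 CPM in plate 3 ins+ cells.

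The genes of these lists did not set the 28 cells apart, but were measured in the same cells and libraries. In sst1.1+ ins+ cells the 17 cells carrying the members had a median of 25 detected spindle genes (2 to 41), against 3 (0 to 5) in the other 40. In sst1.1+ cells the medians were 25.5 in 6 cells against 2 in 55, in plate 4 ins+ cells 21 in 3 cells against 1 in 21, and in plate 3 ins+ cells 16.5 in 2 cells against 1 in 30. Detected licensing and fork genes had medians of 18, 21.5, 29 and 21.5 in the carrying cells in that order of pools, against 2, 2, 1 and 1 in the others. The inhibitor and exit list did not part the cells in this way by detected genes. Its medians were 7 against 6 genes in sst1.1+ ins+, 5.5 against 5 in sst1.1+, 5 against 4 in plate 4 ins+ and 4 against 4 in plate 3 ins+ cells. The median summed level of this list was lower in the carrying cells: 1146 against 1299, 1008 against 1301, 961 against 1249 and 826 against 1259 CPM in that order. G1 genes had medians of 3 against 2.5 in sst1.1+ ins+, 5.5 against 2 in sst1.1+, 3 against 1 in plate 4 ins+ and 2 against 1 in plate 3 ins+ cells. The carrying cells also had more genes in all, with medians of 5569 against 4882 in sst1.1+ ins+, 4242 against 3489 in sst1.1+, 3681 against 2725 in plate 4 ins+ and 3757 against 2553 in plate 3 ins+ cells, and the part of this was not tested.

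Other properties moved with the pools. Detected genes per kept cell had medians of 4999 in sst1.1+ ins+, 3616 in sst1.1+, 2746.5 in plate 4 ins+ and 2564 in plate 3 ins+ cells, and the ratio of gene to spike-in reads had medians of 71.1, 41.8, 29.1 and 28.3 in that order. The sst1.1+ ins+ pool, with the highest mitotic level, thus also had the most genes and the most RNA per spike-in read, and the part of these in the result was not tested. Row C of plate 3 held 5 of the 11 sst1.1+ ins+ cells with at least 5 mitotic members among its 12 kept cells. Rows that held both gates had few kept cells: 3 sst1.1+ ins+ and 9 ins+ in row F of plate 3, with 0 and 1 at 5 mitotic members, and 8 sst1.1+ and 3 ins+ in row C of plate 4, with none. In the remaining rows row and gate cannot be told apart. The 17 sst1.1+ ins+ cells that carried the members held 18.3% of their reads in ins at the median (4.85 to 41.6%) and 14.8% in sst1.1 (0.0940 to 33.5%), close to 20.9 and 12.6% in the other 40, and 4 of the 17 went against their gate. In the plate 4 ins+ pool 1 of the 3 carrying cells, A1, went against its gate, with 18.2% of its reads in ins and 19.4% in sst1.1.

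Markers of other cells were summed for the same pools. Endothelial markers were at 0 in sst1.1+ and both ins+ pools, with 1 of 6 seen at 0.329 CPM in sst1.1+ ins+ cells. Leukocyte markers summed to 27.9 CPM in sst1.1+ ins+, 88.0 CPM in sst1.1+, 19.7 CPM in plate 4 ins+ and 0.813 CPM in plate 3 ins+ cells, with ptprc at 0 in every pool and 5, 4, 1 and 2 of 7 markers with reads. Of these sums cd74a alone gave 25.9, 85.2, 19.7 and 0.148 CPM in that order. Red blood cell markers, 4 found of 6, did not exceed 5.98 CPM, with alas2 and hbaa2 at 0 throughout. Fibroblast markers summed to 14.1 to 20.99 CPM, with 3 to 5 of 6 seen and lum at 0, and col5a1 alone gave 13.5 to 20.4 CPM. Acinar markers, 11 of 11 seen in each pool, summed to 20.2 CPM in sst1.1+ ins+, 171 CPM in sst1.1+, 58.6 CPM in plate 4 ins+ and 15.7 CPM in plate 3 ins+ cells. The median cell held at most 2.09 CPM of acinar markers in any pool, while the highest sst1.1+ cell held 15138 CPM. Duct markers, with 5 to 7 of 7 seen, gave 41.9, 92.0, 15.8 and 62.3 CPM in that order, and markers of neurons and glia, with 1 to 4 of 5 seen and plp1a at 0, gave 86.8, 122, 61.2 and 65.1 CPM. Of the duct sums anxa4 gave 35.6, 42.9, 3.74 and 53.4 CPM. Of the neuron and glia sums elavl4 gave 83.7, 114, 54.7 and 65.1 CPM in the same order. In the carrying cells the medians of the acinar, duct and fibroblast sums did not exceed 1.72, 15.4 and 3.48 CPM in any pool, but single cells held more. G9 and F2 of the sst1.1+ gate, G9 being the cell of that pool with most member reads, held 1047 and 642 CPM of duct markers and 193 and 266 CPM of fibroblast markers. C7 and C9 of the sst1.1+ ins+ gate, with 17 mitotic members each, held 143 and 135 CPM of acinar markers. The part of these in the results was not tested.

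Among markers of the endocrine types, ins and sst1.1 followed the gates, which their reporters set, but not every marker did. The beta-cell marker pdx1 stood at 1120 CPM in sst1.1+ ins+, 1335 CPM in sst1.1+, 1438 CPM in plate 4 ins+ and 1358 CPM in plate 3 ins+ cells. The beta-cell markers nkx6.2 and mnx1 had 0 and 3.86 CPM in sst1.1+ cells and at least 43.5 CPM in each other pool. Beta-cell markers summed to 218067 CPM in sst1.1+ ins+, 1888 CPM in sst1.1+, 370494 CPM in plate 4 ins+ and 399500 CPM in plate 3 ins+ cells, and markers of sst1.1 delta cells to 147269, 259216, 9709 and 1577 CPM in that order. Alpha-cell markers gave 8833, 26236, 8501 and 2661 CPM, the other somatostatin genes sst2 and sst1.2 gave 18072, 30173, 569 and 13863 CPM, and the epsilon-cell gene ghrl gave 58.5, 94.98, 65.2 and 95.2 CPM. The median cell held 395, 29.6, 529 and 463 CPM of alpha-cell markers in that order, with 314140 CPM in the highest sst1.1+ cell. The alpha-cell marker arxa stood at 3.43, 2.90, 5.18 and 7.98 CPM. For sst2 and sst1.2 together the median cell held 5692, 12677, 37.9 and 46.9 CPM. Among the 28 carrying cells, C3 of the sst1.1+ ins+ gate held 6.83% of its reads in gcga and 8.87% in gcgb beside 9 replication and 7 mitotic members. D3 of the sst1.1+ gate held 10.6% in sst1.2 and 9.18% in sst2 beside 5 replication and 13 mitotic members, so cells with several hormones were among those that carried the lists.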

How the data were processed

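The authors deposited 1 table of raw counts per gene with a column for each of 186 cells, unit count, not normalized. Per the submitters' processing notes the reads were processed with Trim Galore, HISAT2 and featureCounts on the GRCz11 assembly; for versions, annotation and strandedness: not given in the sources used here. Columns were matched to cells through the sample descriptions, no column was without a sample, and no 2 cells held identical counts. Spike-in rows, 5.61% of reads, were left out of totals; EGFP counted in totals but in no gene count. Gate and plate came from the titles, and reading their number as a plate is an interpretation.

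Cells with fewer than 500 genes or 50000 gene reads, 12 of 186, were left out; single wells were sorted and no doublet caller was run. Cells were summed by gate and plate into 4 pools, because no animals are named. Levels have exact Poisson intervals, ratios an exact interval conditioned on the sum of both counts, and shares of cells Clopper-Pearson intervals, all at 95%. Log2 ratios used for calls add 1 CPM, which understates changes of low genes. Members with 20 CPM or more in any pool are described in full, the others by range and counts, and the 4 most abundant genes of each other list are named. Of the G1 list ccne1 is named as well (added later). The lists were 3 of members, 4 of other cell cycle genes (G1, inhibitors and exit, licensing and fork, spindle) and 12 of markers (acinar, duct, endothelial, leukocyte, red blood cell, fibroblast, neurons and glia, alpha, other delta, epsilon, beta, sst1.1 delta). Of 219 listed symbols 206 matched by name, 6 by gene ID and 7 were not found. The members, lists and alternatives were chosen with earlier results of these data known. The ratio intervals and 2-fold calls were tested on simulated Poisson counts of the pools, which hold no spread between cells. Shares of cells were not simulated. Python 3.11.15, scipy 1.17.1, R 4.3.3 and edgeR 4.0.16 (TMM factors) were used. Alternatives were other totals, cell filters, read and member thresholds, thinning, a pseudocount of 5 CPM, no filter on low values, means over cells, the ins+ cells of both plates, and leaving out top cells, cells rich in other hormones, cells against their gate (added later) and pcna (added later).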

Additional observations from a re-analysis of the deposited data

How the results depend on the processing

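Of 67 alternative values for the summed levels, 64 kept the direction reported and 3 did not. Size was less stable: 31 stayed inside the counting interval of the main value and 34 moved outside it. The remaining 2 were reversed from a main log2 ratio beyond 1 up or down. Log2 ratios are given here for sst1.1+ ins+ over plate 3 ins+, sst1.1+ over plate 4 ins+ and plate 4 over plate 3 ins+ cells. Without the top cell of each pool they were 1.67, -1.09 and 1.80 for replication and 3.67, 0.54 (the reverse) and 1.04 for mitotic members. Without 3 cells they were 4.52, 0.13 (the reverse) and 2.46 for replication and 3.58, 1.68 (the reverse) and 0.14 for mitotic members. Cells were ranked by reads of all members, not by those of each list. Among sst1.1+ cells D3 and H8, with 733 and 529 mitotic reads, thus stayed in both times. B8 of the plate 4 ins+ cells, with 1653 mitotic reads, was left out both times. The ins+ cells of both plates gave 0.10 and -0.50 for replication and 1.85 and -0.53 for mitotic members in the first and second comparison. Totals without hormone genes gave 0.74, -1.17 and 1.13 for replication and -1.35 for mitotic members on plate 4, where this total shifts every log2 ratio by -0.17. TMM and median-of-ratios totals shift plate 4 over plate 3 ins+ by -0.13 and -0.11, and gave 1.07 and 1.09 for replication members there and 1.61 (TMM) for mitotic members. Median-of-ratios totals gave -1.05 for replication members on plate 4. Means over cells gave 2.80 and -1.03 for mitotic members on plates 3 and 4 and 1.28 for replication members between ins+ pools. Without cells rich in other hormones the replication values on plates 3 and 4 were 0.73 and -0.91 and the mitotic value on plate 4 was -1.44. Without cells against their gate replication values were 0.67, -0.67 and 0.91, and without pcna 0.88, -1.25 and 1.67. Members at least 2-fold higher in sst1.1+ ins+ cells numbered 12, against 20, with the ins+ cells of both plates. In sst1.1+ over plate 4 ins+ cells they numbered 5 and 7 without 1 and 3 cells and 0 with a pseudocount of 5 CPM, and between ins+ pools 9 without 3 cells. Shares of all genes were not computed under these settings, so whether these counts exceed them is not known. Of 72 alternative shares of cells 2 left their interval: replication shares of sst1.1+ ins+ cells of 35.1% from 3 members and 10.53% from 8. The causes were not tested. No paired analysis was possible because the labels carry no replicate numbers and each gate on a plate is 1 sample. With few cells per pool, shares of cells are known only within wide intervals, and a member with 0 reads in a pool is below 3 reads in 12550652 to 34186971.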

Other observations

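Some members had their highest cell outside the cells that carried the lists; these cells were picked after their values were seen. In the sst1.1+ gate, well F12 held the highest mki67 of its pool, 330.2 CPM and 34.9% of the pool's mki67 reads, with 1 mitotic and 1 replication member detected. The same cell held the highest ccne2 of the pool, 258 CPM. In the plate 4 ins+ pool, well A3 held the highest hmgb2a of all 174 cells, 2758 CPM and 34.8% of the pool's reads of that gene, with 0 replication and 2 mitotic members detected. It also held 66.3% of that pool's bub1 reads. In the plate 3 ins+ pool, well F10 held 69.1% of the plk1 and 65.8% of the ube2c reads with no other mitotic member detected.

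Single mitotic genes were also detected outside the 28 cells. Of the 146 other cells, 16 had ube2c, 15 had cenpe, 11 had mki67, 9 had plk1 and 9 had birc5a, against 0 for ccna2, cdc20 and kif11. Among replication members pcna was detected in 19 and ccne2 in 14 of the 146, against 0 for mcm3. Inside the 28 cells ccne2 was detected in 11.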
